A study of Mus musculus with 8 samples.

Results

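The AP-1 family of lung group 2 innate lymphoid cells (ILC2s) is described here through 10 genes: Fos, Fosb, Fosl1, Fosl2, Jun, Junb, Jund, Batf, Batf3 and Atf3. The genes were chosen by symbol, as a family, when their Yoda1 against DMSO values in these same libraries were already known. Those values are therefore given as a description, and no p-value is attached to a member. Statements that a member passed a threshold are part of that description. All 10 symbols were found among the 23183 genes of the count files, and all 10 were among the 12239 genes with enough reads to be compared. The libraries came from cultured lung ILC2s of C57BL/6 mice, of which 4 received Yoda1 at 5 µM, a small molecule that opens the mechanosensitive cation channel Piezo1, and 4 received the vehicle DMSO at 0.1%, each for 3 h. Per the methods, the wild-type mice of the study were of both sexes and 6 to 10 weeks old, the donors had been given IL-33, and the cells of both groups were enriched with a pan-ILC kit and CD45 beads and grown with IL-2, IL-7 and IL-33, so the DMSO cells were cytokine-stimulated too. The question put to these libraries is which transcripts differ after Piezo1 is opened.

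AP-1 is a family of dimeric transcription factors whose subunits share a basic DNA-binding region and a leucine zipper. FOS proteins need a JUN partner to bind DNA, JUN proteins can also pair with each other, and BATF and ATF3 pair with JUN proteins but carry no strong activation domain of their own. Fos, Fosb, Jun and Atf3 are classical immediate early genes, whose transcription starts within minutes of a rise in calcium or of mitogen-activated protein kinase activity and soon fades, and in lymphocytes AP-1 acts with NFAT or IRF factors at composite sites near cytokine genes.

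Library totals ran from 12438009 to 19534653 reads, so that 1 read was worth between 0.0514 and 0.0807 normalized CPM (counts per the usual common library total, after scaling with TMM, a factor that balances libraries for composition). By chi-square per gene between replicates, DMSO replicate 1 stood farther from the other DMSO libraries (4.36 to 6.62) than these did from each other (2.82 to 3.55), while pairs of Yoda1 libraries gave 2.01 to 4.41. Without it the log2 differences of Fosb, Jun and Atf3 were 1.49, 0.50 and 0.35, all still past the threshold, a Benjamini-Hochberg value under 0.05 in edgeR over the whole table. The ILC2 markers were abundant, with at least 20826 reads of Il1rl1, the IL-33 receptor, in the Yoda1 and 20955 in the DMSO libraries, and the 13 markers together at 17963 to 18489 CPM in DMSO and 20039 to 20434 in Yoda1. Of these 13 markers, 6 were higher and 1 was lower in Yoda1, which is 53.8% of them beside 10.9% of all genes tested. Markers of other cells were low. T cell markers summed to 69.8 to 77.5 CPM in DMSO and 75.2 to 84.8 in Yoda1, B cell markers to between 5.32 and 7.20 over all libraries, macrophage markers to between 6.57 and 8.57, mast cell or basophil markers to between 3.62 and 5.54, and ILC3 markers to between 1.15 and 1.86. Marco, Sftpc and Scgb1a1 had no read in any library, Lyz2 and Ms4a1 had 0 to 2, and the only abundant gene of the stroma list was Pecam1 (220 CPM in DMSO and 219 in Yoda1), which white blood cells also express. The 5 NK or ILC1 markers summed to 74.4 to 80.1 CPM in DMSO and 90.6 to 99.7 in Yoda1. Tbx21 and Eomes were higher in Yoda1 and passed the threshold, 2 of 5 or 40%, beside the same 10.9% of all genes tested. The receptor Ncr1 stood at 4.42 CPM in DMSO and 3.70 in Yoda1, Klrb1c at 6.07 and 5.28, and Klra8 at 8.58 and 9.89. None of these passed the threshold. The part of these 5 markers in the AP-1 values was not tested. In bulk RNA a change in the number of cells of a type and a change in RNA per cell cannot be told apart.

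The members fell on 7 chromosomes (GENCODE M21, build GRCm38, the assembly also called mm10), and some of them are neighbours. Fos (chromosome 12, 85473890 to 85477273, plus strand) and Batf (85686669 to 85709087, plus strand) lie 209395 bases apart with a single protein-coding gene between them, Jdp2, which encodes another AP-1 subunit that mostly represses. Batf3 (chromosome 1, 191097847 to 191108945, plus strand) and Atf3 (191170296 to 191218039, minus strand) lie 61350 bases apart with Fam71a between them. Fosb (chromosome 7, 19302696 to 19310051, minus strand), Jun (chromosome 4, 95049034 to 95052222, minus strand) and Fosl2 (chromosome 5, 32135801 to 32157842, plus strand) have no other member on their chromosome. In their principal transcripts the FOS genes have 4 exons each, and Jun, Junb and Jund have 1 exon and no intron. Exons of an opposite-strand gene overlap those of Jun (Junos), Junb (Prdx2), Jund (Gm11175) and Fosl1 (Ccdc85b). Whether the counting used strand is not given in the sources used here, so reads of these pairs may have been shared.

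The 250 bases before the RefSeq start are shown for the members past the threshold, Fosb, Jun and Atf3, and for Fos, the closest relative of Fosb. Each run reads 5′ to 3′ on the strand of its gene in GRCm38.p6. The windows are chr7:19310046-19310295 on the minus strand for Fosb, chr12:85473640-85473889 on the plus strand for Fos, chr4:95052223-95052472 on the minus strand for Jun, and chr1:191183334-191183583 on the minus strand for Atf3, which is an internal start of the annotated gene. Capitals mark the core of the cAMP response element (TGACG, on either strand), the AP-1 variant TGACATCA and the TATA box TATAAA.
Fosb: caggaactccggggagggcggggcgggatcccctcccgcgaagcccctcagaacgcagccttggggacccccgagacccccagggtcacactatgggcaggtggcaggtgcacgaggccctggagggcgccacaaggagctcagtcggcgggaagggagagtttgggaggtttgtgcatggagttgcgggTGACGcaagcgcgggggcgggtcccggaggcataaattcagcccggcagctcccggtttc
Fos: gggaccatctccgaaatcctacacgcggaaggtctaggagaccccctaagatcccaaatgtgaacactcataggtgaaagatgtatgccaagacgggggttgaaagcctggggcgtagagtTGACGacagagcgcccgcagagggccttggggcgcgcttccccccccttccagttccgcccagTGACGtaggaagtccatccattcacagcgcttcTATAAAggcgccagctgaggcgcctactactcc
Jun: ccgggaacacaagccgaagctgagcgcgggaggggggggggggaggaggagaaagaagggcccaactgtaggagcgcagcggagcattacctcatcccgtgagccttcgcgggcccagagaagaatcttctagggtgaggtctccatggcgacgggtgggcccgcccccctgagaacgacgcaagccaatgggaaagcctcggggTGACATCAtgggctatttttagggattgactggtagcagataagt
Atf3: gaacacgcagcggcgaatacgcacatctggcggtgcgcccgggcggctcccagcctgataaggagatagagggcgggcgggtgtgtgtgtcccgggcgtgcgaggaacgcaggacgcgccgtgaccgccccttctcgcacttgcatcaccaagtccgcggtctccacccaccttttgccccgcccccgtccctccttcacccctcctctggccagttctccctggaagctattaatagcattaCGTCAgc

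RefSeq held a window for 9 of the 10 members. The Jund window (chr8:70697489-70697738, plus strand) ends well before the annotated start of the gene at 70698949. Its lack of matches may therefore not describe the promoter of the annotated gene. The core TGACG, searched on both strands, was found in 5 of these 9 windows (Fos, Fosb, Junb, Batf and Atf3), against 17.8% of all 32851 windows of this length. The base of the match nearest the start lay 56 bases before it in Fosb, 62 and 125 bases before it in Fos, and 3 bases before it in Atf3. The full cAMP response element TGACGTCA, which contains that core, occurred in 1.55% of all windows and in no member window. The AP-1 site TGANTCA occurred in 6.75% of all windows and in no member window, and the CArG box bound by SRF in 1.47% and in none. TGACATCA, which was looked for after the Jun sequence had been read, was present in the Jun window and in 2.93% of all windows. An EGR site (GCGNGGGCG) was found in the windows of Fosb and Fosl2, against 4.70% of all windows, and TATAAA only in that of Fos among the members, against 12.4%. These matches describe letters in a short window and say nothing on binding. Bases farther upstream were not searched. The lack of a CArG box or other motif in a window therefore does not show that the gene lacks it.

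Over the family, Fosb, Jun and Atf3 rose with Yoda1, none fell, and 7 members did not pass the threshold. That is 3 of 10 members, all of them higher, where 10.9% of all tested genes passed in either direction, 6.04% higher and 4.84% lower. The members were chosen with this contrast known, so nothing is read from that count. Counts of higher and lower genes over the whole table moved with the scaling, from 55.5% of calls higher with TMM to 34.5% with upper-quartile factors and 40.6% with library size only, while Fosb, Jun and Atf3 passed under each of 15 alternative settings. The log2 differences of the 10 members ran from -0.28 (Batf3) to 1.34 (Fosb) with a median of 0.29, and 9 of 10 lay above 0, beside a median of -0.0053 and a median absolute difference of 0.085 over all genes tested. In 5 members (Fosb, Fosl1, Fosl2, Jun and Atf3) every Yoda1 library lay above every DMSO library, where 8.44% of all tested genes did so and 15.5% were separated in either direction. These medians and counts use the contrast known when the members were chosen, so nothing is read from them either.

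**Figure D1:**
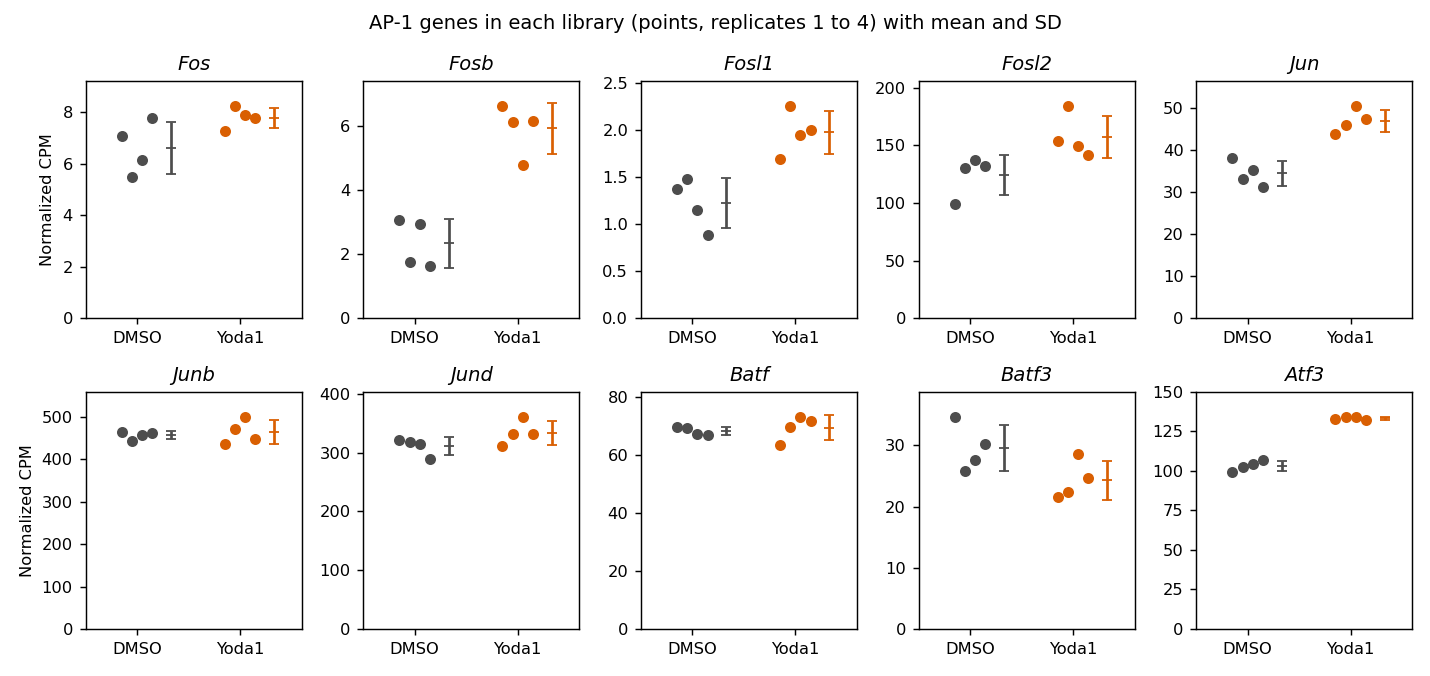
Normalized CPM of each AP-1 gene (vertical axes, each from 0) in the 4 DMSO libraries (dark grey) and the 4 Yoda1 libraries (orange), points in the order of replicates 1 to 4, with the mean and SD beside them. The groups are apart for Fosb, Fosl1, Fosl2, Jun and Atf3 and overlap for the other 5 genes.

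Among the FOS genes, Fosb, which encodes a FOS subunit with a strong activation domain, differed most. Its normalized CPM in DMSO replicates 1 to 4 were 3.07, 1.75, 2.94 and 1.63, and in Yoda1 replicates 1 to 4 they were 6.62, 6.15, 4.80 and 6.17. The lowest Yoda1 library stood above the highest DMSO library. The means were 2.35 ± 0.763 and 5.93 ± 0.788 (SD, n = 4 each), a 2.53-fold rise with a log2 difference of 1.34 (standard error 0.175), place 21 from the top among the 12239 genes. Fosb rested on few reads, 22 to 49 in DMSO libraries and 64 to 120 in Yoda1 libraries. Counting alone gives a coefficient of variation (CV) of 16.4% at the DMSO depth, and the DMSO libraries varied by 32.5%.

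Fos, the founding member and a common reporter of cell stimulation, did not pass. Its CPM were 7.07, 5.48, 6.14 and 7.76 with DMSO and 7.27, 8.22, 7.87 and 7.77 with Yoda1, from 90 to 151 reads per library. DMSO replicate 4 lay within the range of the Yoda1 libraries, and DMSO replicate 1 just under it. The log2 difference was 0.25 (standard error 0.116), and without DMSO replicate 2, the lowest library, it was 0.16.

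Fosl1, which encodes FRA-1, was the scarcest gene in reads, with 12 to 27 in DMSO libraries and 21 to 39 in Yoda1 libraries. Its CPM were 1.38, 1.48, 1.15 and 0.887 with DMSO and 1.70, 2.25, 1.95 and 2.01 with Yoda1. The groups did not overlap, yet the difference of 0.68 on the log2 scale (standard error 0.233) stayed short of the threshold, which it passed only with the filter of at least 10 counts in every sample. Counting error alone was 22.5% per DMSO library.

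Fosl2, which encodes FRA-2, made up most FOS reads. Normalized CPM were 99.1, 130.1, 137 and 132 in DMSO replicates 1 to 4, and 154, 184, 149.9 and 142 in the Yoda1 replicates. DMSO replicate 1 was low and Yoda1 replicate 2 was high, and the groups came near each other at 137 and 142 without overlap. The log2 difference was 0.34 (standard error 0.130) and did not pass in any of the 15 alternatives, with a value of 0.24 without DMSO replicate 1 and 0.25 without Yoda1 replicate 2.

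Among the JUN genes, Jun rose and the more abundant Junb and Jund did not pass. Jun, which encodes c-Jun, the main partner of FOS proteins, was at 38.2, 33.1, 35.4 and 31.3 CPM with DMSO and at 44.0, 46.1, 50.5 and 47.4 with Yoda1. Every Yoda1 library stood above every DMSO library. The means were 34.5 ± 2.99 and 47.0 ± 2.71 CPM (SD, n = 4 each), a 1.36-fold rise with a log2 difference of 0.44 (standard error 0.060). Junb, a JUN protein that activates less than c-Jun in many settings and is needed by several helper T cell types, ranged from 442 to 464 CPM in DMSO and from 436 to 499.6 in Yoda1, with both the lowest and the highest library in the Yoda1 group. Its log2 difference of 0.024 (standard error 0.039) turned to -0.0072 with upper-quartile factors and to -0.012 without Yoda1 replicate 3. Jund, the JUN gene that is expressed most steadily across tissues, ranged from 289.6 to 322 CPM in DMSO and from 312 to 361 in Yoda1, a log2 difference of 0.10 (standard error 0.042).

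Atf3, a stress- and calcium-responsive subunit that often represses, rose with little spread between replicates. Its CPM were 99.6, 102, 104 and 107 with DMSO and 133, 134, 134 and 132 with Yoda1. The gap between the groups was wide beside the spread within them. The means were 103 ± 3.04 and 133 ± 0.848 (SD, n = 4 each), a 1.29-fold rise with a log2 difference of 0.37 (standard error 0.038).

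Batf and Batf3, which pair with JUN proteins and with IRF4 or IRF8 at cytokine genes, did not pass. Batf ranged from 67.0 to 69.7 CPM in DMSO and from 63.5 to 73.0 in Yoda1, a log2 difference of 0.026 (standard error 0.047) that became -0.0048 with upper-quartile factors. Batf3 was the single member with a lower mean in Yoda1. Its CPM were 34.6, 25.8, 27.7 and 30.2 with DMSO and 21.6, 22.3, 28.6 and 24.7 with Yoda1. Yoda1 replicate 3 lay within the DMSO range. The log2 difference was -0.28 (standard error 0.096), short of the threshold in the fit used here and past it in 5 of 15 alternatives, among them DESeq2, upper-quartile factors and the fit without Yoda1 replicate 3 (-0.36), and it was -0.19 without DMSO replicate 1. Its neighbour Atf3, 61350 bases away, rose in the same libraries.

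**Figure D2:**
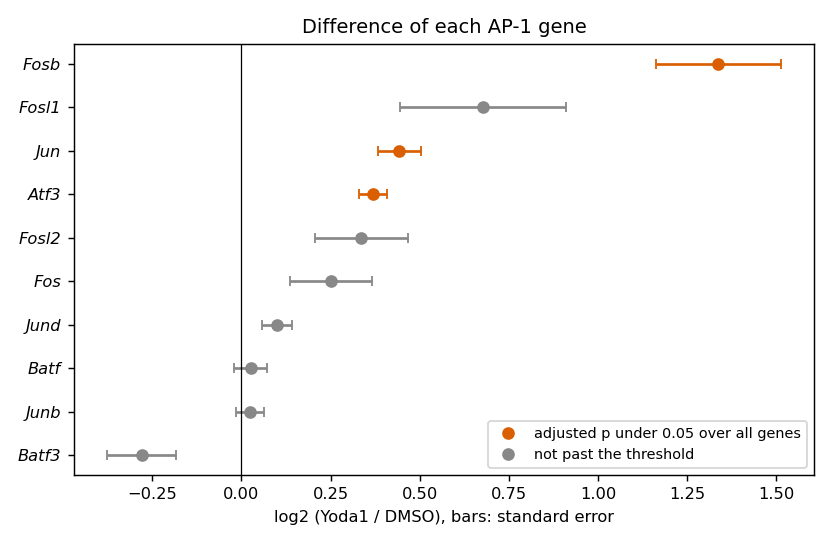
Log2 difference between Yoda1 and DMSO (horizontal axis) for each AP-1 gene, with its standard error, genes past the threshold in orange and the others in grey. Fosb is highest at 1.34, and Batf3 is the only gene below 0, at -0.28.

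The abundance of the subunits was unequal. Levels were compared as CPM per kilobase of exonic length, a scale on which different genes can be set side by side. The levels of Jun, Junb, Jund and Fosl1 carry the limit of the opposite-strand overlaps given above. In DMSO libraries the order was Junb (198 ± 4.23), Jund (187 ± 8.86), Batf (48.6 ± 1.05), Atf3 (48.0 ± 1.41), Batf3 (18.5 ± 2.39), Fosl2 (12.9 ± 1.79), Jun (10.8 ± 0.936), Fos (2.81 ± 0.428), Fosl1 (0.602 ± 0.129) and Fosb (0.376 ± 0.122), each as mean and SD over 4 libraries. Neighbours whose ranges overlapped were Junb and Jund, Batf and Atf3, Fosl2 and Jun, and Fosl1 and Fosb. In Yoda1 libraries Atf3 stood above Batf without overlap, at 61.9 ± 0.394 against 49.4 ± 3.01 CPM per kilobase, and Fosl2, Batf3 and Jun followed one another closely at 16.3, 15.2 and 14.7. Fosb still had the lowest mean level per exonic length, 0.951, with Fosl1 at 0.972. With the longest transcript as the length, all 10 genes kept their place in DMSO, whereas in Yoda1 Fosb then stood above Fosl1 (1.57 against 1.06) and Batf above Atf3 with overlapping ranges.

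**Figure D3:**
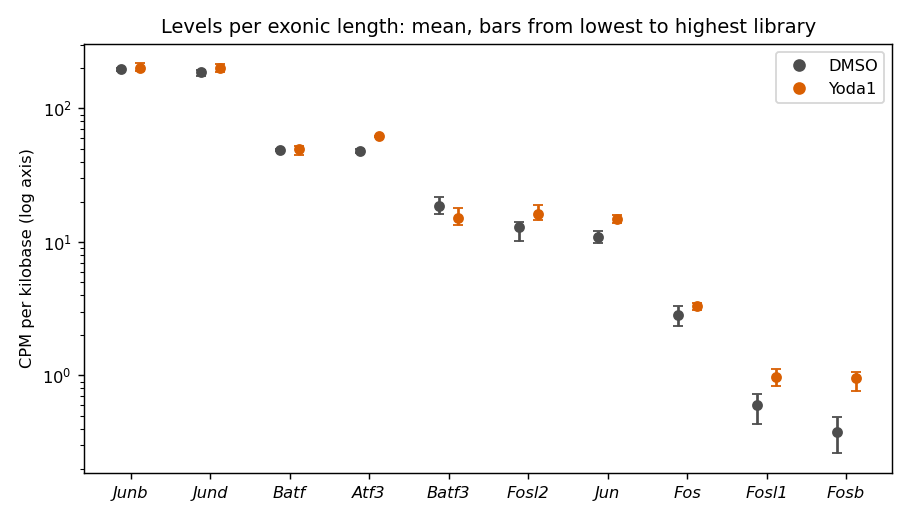
Level of each AP-1 gene in CPM per kilobase of exonic length (log axis) in DMSO (dark grey) and Yoda1 (orange); points are means of 4 libraries and bars run from the lowest to the highest library. Junb and Jund lie near 200 in both groups, and Fosb and Fosl1 lie near or below 1.

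Reads per kilobase of the JUN genes far exceeded those of the FOS genes in both groups. Exons of Jun, Junb, Jund and Fosl1 overlap opposite-strand genes, and the strand setting of the counting is unknown. The sums and the FOS share may therefore include or miss reads of these overlaps. Summed per kilobase, Fos, Fosb, Fosl1 and Fosl2 reached 16.7 ± 1.58 in DMSO and 21.5 ± 2.10 in Yoda1, and Jun, Junb and Jund reached 396 ± 9.40 and 417 ± 24.6 (SD, n = 4 each). The FOS share of this total was 3.42%, 4.09%, 4.28% and 4.40% in DMSO replicates 1 to 4 and 5.07%, 5.55%, 4.38% and 4.65% in the Yoda1 replicates. Yoda1 replicate 3 lay just under DMSO replicate 4, so the groups overlapped. Fosl2 supplied 77.0 ± 4.17% of the FOS reads per kilobase in DMSO and 75.6 ± 1.57% in Yoda1. Protein levels and dimers were not measured in these libraries.

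The spread between replicates of a group is a measure that the choice of genes did not use, and it set the members apart from each other. Over the 7169 genes with a mean of at least 20 CPM, the median within-group CV was 4.67%. Fosl2 had a CV of 12.8%, where counting alone gives 2.14%, and Batf3 one of 13.0%, where counting gives 4.91%, which placed them at percentiles 99.2 and 99.3 of those genes. Jun followed at 7.35% and Jund at 5.43%. Batf (4.58%) and Junb (4.52%) were near the median. Atf3 lay at the other end, with a CV of 2.13% that did not exceed the 2.34% of counting, at percentile 4.73. DMSO replicate 1 was the edge library of its group for both wide genes, the lowest for Fosl2 and the highest for Batf3, and Yoda1 replicate 3 was the highest of its group for Batf3. After each gene was centred within its group, the correlation over the 8 libraries was highest for Jun with Jund (Pearson r = 0.83) and for Jund with Batf (0.80) among the 45 pairs, and it was -0.67 for Fosl2 with Batf3. These pairs share their libraries, depth and scaling, and with 8 libraries they are only a description.

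**Figure D4:**
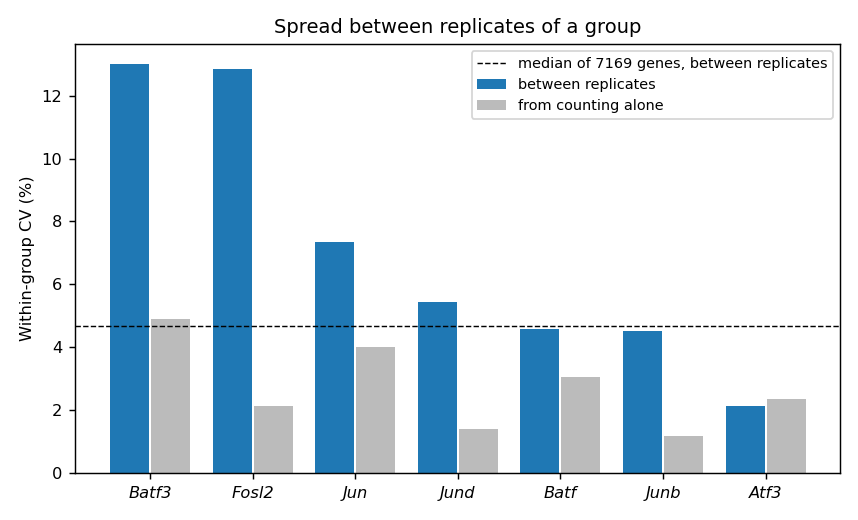
Within-group coefficient of variation between replicates (blue) and the part that counting alone gives (grey), in percent, for the 7 AP-1 genes with a mean of at least 20 CPM; the dashed line is the median of the 7169 genes at that level. Batf3 and Fosl2 stand at about 13%, and Atf3 is at its counting level.

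The 3′ untranslated regions were searched for AU-rich pentamers, which are known to shorten the life of immediate early transcripts. In the principal GENCODE transcripts, ATTTA occurred in 8 of 10 members and in 68.0% of the 11237 tested genes with such a region, so its presence does not mark the family. Fos carried 4 copies in 815 bases (4.91 per kilobase, percentile 93.0 of those genes), Junb 2 in 485 bases (4.12 per kilobase, percentile 89.6) and Jun 4 in 1233 bases (3.24 per kilobase, percentile 82.4). Fosb had 1 copy in 2145 bases (0.466 per kilobase, percentile 33.8). Batf and Batf3 had none. The longer motif TTATTTATT was present in Fos and Fosl2 and in 7.62% of the tested genes. Fosb had the largest difference and a low density, and Junb a high density and a difference of 0.024. Jun and Atf3 (2.53 per kilobase, percentile 73.6) passed the threshold with higher densities than Fosb. Batf, without a copy, had a difference of 0.026. A density at or above the median of the tested genes, 1.29 per kilobase, was found in 7 of 10 members. Whether the density bears on the differences was not tested, and transcript decay was not measured in these libraries.

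By the correlation of log2(CPM + 0.5) over the 8 libraries, Fosb was most like Slc4a2 (Pearson r = 0.98), Sdcbp (0.98), Chpf2 (0.97), Nek6 (0.97) and Rab5a (0.97). These genes were far more abundant, with DMSO means from 86.8 CPM (Rab5a) to 177 CPM (Slc4a2), and their log2 differences were small, from 0.090 (Sdcbp) to 0.16 (Chpf2). The 8 points share the split by treatment, the depth and the scaling.

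Other bZIP factors, many of them possible partners of the members, moved little. Of 43 listed genes, 33 were tested and 4 passed by the edgeR quasi-likelihood test adjusted over all genes, 2 higher and 2 lower, which is 12.1% of those tested beside the background of 10.9%. Their median log2 difference was 0.063, with 23 of 33 above 0. Crem, which encodes activators and the calcium- and cAMP-induced repressor ICER, rose from 156 ± 6.78 to 187 ± 5.67 CPM (SD, n = 4 each; log2 difference 0.26, standard error 0.039, edgeR adjusted p = 2.72e-05). Maff, a small MAF protein, rose from 10.2 ± 0.830 to 12.5 ± 1.28 CPM (log2 difference 0.32, edgeR adjusted p = 0.0293). Atf4, the main factor of the integrated stress response, fell from 237 ± 8.77 to 209.7 ± 8.26 CPM (log2 difference -0.18, edgeR adjusted p = 0.00224), and Maf fell from 228 ± 7.64 to 208 ± 3.91 (log2 difference -0.13, edgeR adjusted p = 0.0162). In each of these 4 genes the groups did not overlap. Jdp2, which lies between Fos and Batf, had a log2 difference of 0.077 (standard error 0.055, edgeR adjusted p = 0.408), and the remaining BATF gene, Batf2, was near 0.8 CPM in both groups. The count was 7 without DMSO replicate 1 and 2 without DMSO replicate 2 or Yoda1 replicate 4.

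A list of 37 symbols held kinases of the mitogen-activated protein kinase pathways, upstream kinases among them, and SRF and MEF2 factors. Of these symbols, 31 could be tested. Map2k3 and Mef2d rose and Map3k5 fell, 3 of 31 or 9.68%, a share near the 10.9% over all tested genes. Map2k3, a kinase upstream of p38, went from 192 ± 5.66 to 219 ± 4.04 CPM (log2 difference 0.19, standard error 0.036, edgeR adjusted p = 0.000519). Mef2d, a calcium-regulated factor that binds the Jun promoter, went from 65.3 ± 1.98 to 73.9 ± 3.28 (log2 difference 0.18, edgeR adjusted p = 0.00805), and Map3k5, a stress kinase upstream of JNK and p38, from 113 ± 6.49 to 99.8 ± 2.96 (log2 difference -0.18, edgeR adjusted p = 0.00701). The median of the list was -0.015, with 15 of 31 above 0. With library size only 5 genes passed, with upper-quartile factors 7, and without DMSO replicate 1 5.

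The factors that bind composite sites with AP-1 or BATF moved in both directions. Of 12 genes, all tested, 6 passed, 4 higher and 2 lower, beside 10.9% of all tested genes in either direction, 6.04% higher and 4.84% lower. The median log2 difference was 0.024. Irf8, which pairs with BATF-JUN dimers, rose from 227 ± 9.30 to 309 ± 16.3 CPM (SD, n = 4 each; log2 difference 0.45, standard error 0.040, edgeR adjusted p = 2.04e-09), while Irf4, its close relative, had a log2 difference of -0.014 (standard error 0.039, edgeR adjusted p = 0.871). Nfatc2, an NFAT protein that binds beside FOS-JUN dimers, fell from 337 ± 23.2 to 277 ± 17.9 CPM (log2 difference -0.28, edgeR adjusted p = 0.000833), with DMSO replicate 1 within the Yoda1 range. Ets2 (log2 difference 0.27, edgeR adjusted p = 0.0217) and Nfat5 (0.19, edgeR adjusted p = 0.0244) rose, the latter with Yoda1 replicate 3 within the DMSO range. The count was 3, with 1 higher, without DMSO replicate 3, without Yoda1 replicate 1 or without Yoda1 replicate 2. Of 14 tested ubiquitin ligases and cofactors that act on FOS or JUN proteins, 0 passed in edgeR and 0 in DESeq2, and 1 had an unadjusted p under 0.05. In this list 1 gene passed with library size only, with upper-quartile factors, without a filter on low counts, without DMSO replicate 1 and without Yoda1 replicate 2.

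Genes listed as textbook AP-1 targets mostly had log2 differences above 0, and AP-1 sites of these genes were not examined here. Of 30 listed, 23 were tested and 14 passed, 13 higher and 1 lower, which is 60.9% of those tested beside 10.9% over all genes, with a median log2 difference of 0.16 and 19 of 23 above 0. Several of these cytokine genes were known from earlier results to be higher, so this count is not independent evidence, and Il5 and Il13 of the list are also ILC2 markers. Tbx21, a factor that activates Ifng and an NK or ILC1 marker, was higher in the same libraries (20.9 ± 2.50 and 32.1 ± 1.65 CPM), and its part in these values was not tested. Ifng, the interferon of type 1 responses, rose from 106 ± 10.4 to 268 ± 12.1 CPM (SD, n = 4 each; log2 difference 1.35, standard error 0.055, edgeR adjusted p = 1.08e-11). Spp1, which encodes osteopontin, rose from 314 ± 26.5 to 471 ± 23.9 CPM (log2 difference 0.58, edgeR adjusted p = 4.93e-07), and Fasl, the death ligand, from 8.79 ± 1.79 to 12.9 ± 1.33 CPM (log2 difference 0.57, edgeR adjusted p = 0.00105), with DMSO replicate 4 within the Yoda1 range. Ccnd1, which encodes cyclin D1, fell from 5.09 ± 0.380 to 2.88 ± 0.339 CPM (log2 difference -0.81, edgeR adjusted p = 0.000362). Il2, the classical AP-1 and NFAT target of T cells, had 0 to 12 reads per library and was not tested, and Vim, at 5939 CPM in DMSO, had a log2 difference of 0.0064 (edgeR adjusted p = 0.932). Under all 15 alternatives the count was 13 or 14.

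**Figure D5:**
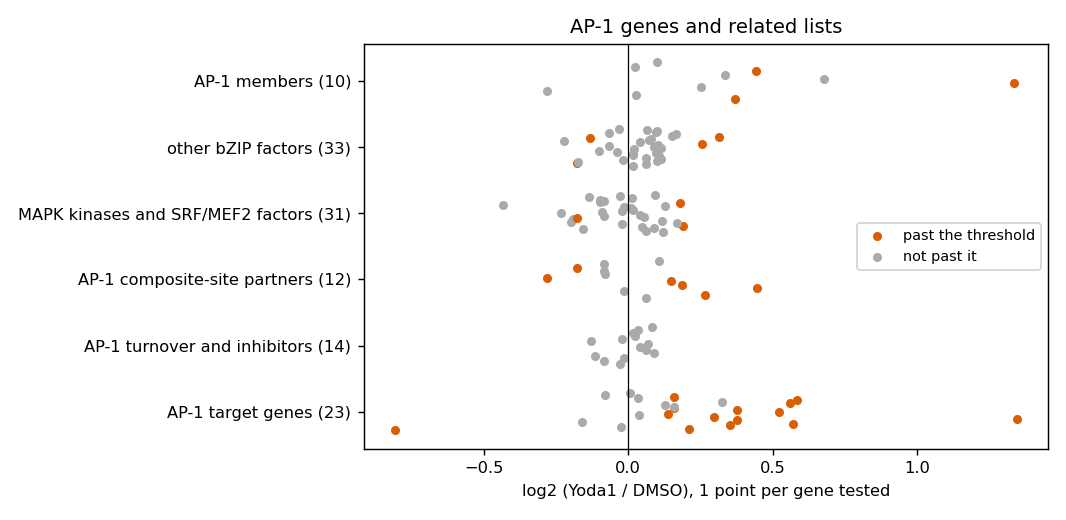
Log2 difference between Yoda1 and DMSO (horizontal axis), 1 point per tested gene, for the 10 AP-1 genes and 5 related lists (number tested in brackets); orange points passed the threshold and grey points did not. Fosb and Ifng stand farthest to the right at 1.34 and 1.35, and the turnover list has no orange point.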

How the data were processed

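Poly(A)-selected RNA of 4 DMSO-treated and 4 Yoda1-treated ILC2 samples was sequenced, and the authors deposited raw counts of reads per gene symbol for each library. The paper names FASTX Trimmer, BBMap and Cufflinks, and the submitters' processing notes name TopHat and mm10. Versions, annotation, counting tool and strand setting are not given in the sources used here. Nor is it stated whether the 4 libraries of a group came from separate mice, so p-values measure only the spread between these samples, which may be technical. Within groups all pairs of libraries differed by more than sampling noise (chi-square per gene 2.01 to 6.62).

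From these counts, genes were filtered with filterByExpr (minimum count 10, minimum total 15), scaled with TMM and compared by edgeR 4.0.16 quasi-likelihood tests with robust fitting in R 4.3.3, adjusted over 12239 genes (Benjamini-Hochberg, threshold 0.05). The standard error is the log2 difference divided by the root of F. The study's own Cuffdiff test needs reads and was not run. The fit was checked on simulated counts. The counting CV is the Poisson value and covers counting error only. Library totals were 12438009 to 19534653.

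Members and lists were chosen with earlier results of these data known. The text names all members, at most 4 genes past the threshold per list (largest differences), the 5 genes most like Fosb, and markers; Jdp2, Batf2, Irf4, Il2 and Vim were named after their values were seen. Some single-gene values are not reported here. Positions came from GENCODE M21, in which 95.5% of symbols were found, promoter sequences from RefSeq GRCm38.p6. No protein sequence was used here. Same-numbered libraries did not deviate together (r between -0.056 and 0.067). Alternatives were DESeq2 1.42.0, limma-voom 3.58.1, other scalings and filters, the replicate number as a block, other transcript lengths and each library left out.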

Additional observations from a re-analysis of the deposited data

Results flagged for a closer look

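Of 64 groups of 4 libraries examined, 1 held a library far from the rest, where chance alone would give about 3.2. The groups covered each member, the FOS share, the named list genes past the threshold, the genes most like Fosb, and Jdp2. Markers and the remaining named genes were not examined. Fasl was high in DMSO replicate 4, at 11.5 normalized CPM, with the next library at 8.16. No member of the AP-1 family was set apart in this way. No cause was tested.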

How the results depend on the processing

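Fosb (1.20 to 1.49), Jun (0.40 to 0.50) and Atf3 (0.34 to 0.38) kept their direction and stayed past the threshold under all 15 alternatives. Between 3 and 4 members passed in each. All alternatives used the libraries with which the members were chosen, so they describe only how the values depend on the processing. Fos, Fosl2 and Jund passed in none. The signs of Junb and Batf were not fixed: with upper-quartile factors they were -0.0072 and -0.0048, and with each library left out Junb ran from -0.012 to 0.052. Upper-quartile factors shift the median of all genes to -0.036. The FOS share difference of 0.87 points was 1.10 with the longest transcripts and 0.65 to 1.05 with 1 library left out.

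Among the other lists, MAPK kinases and SRF or MEF2 factors past the threshold numbered 5 with library size only and 7 with upper-quartile factors, and 3 to 5 with 1 library left out. The other bZIP factors numbered 2 to 7 and the composite-site partners 3 to 5 with 1 library left out. The turnover list had 1 with library size only, 1 with upper-quartile factors, 1 without a filter and 0 to 1 with 1 library left out. With the replicate number as a block, 966 genes passed over the whole table in place of 1331, of which the members again supplied 3, and 2 of 8 libraries correlated best with their own number, so the numbers were not taken as pairs. Depth limits Fosl1 and Fosb most, with 12 and 22 reads in their lowest libraries.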
